A study of Mus musculus with 32 samples.

Results

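The 50 genes described here make or regulate the machinery of mitosis and of the G2 phase before it. They were chosen by name and not by a measured value, although earlier results of these data were known. All 50 were found among the 24421 genes measured and carried UMIs (unique molecular identifiers, each marking 1 captured transcript). The study followed mouse embryonic fibroblasts (MEFs) in which doxycycline switched on reprogramming towards pluripotency, and profiled single cells in 32 droplet libraries, 2 per group in 16 groups. Reprogramming cells received doxycycline at 2 ug/mL on irradiated MEF feeders. A2S cells (days 2, 4 and 6) also received ascorbic acid at 50 ug/mL, the DOT1L inhibitor SGC0946 at 5 uM and, 12 h later, 2i, which is the GSK3 inhibitor CHIR-99021 with the MEK inhibitor PD-0325901. A2 cells lacked SGC0946, S2 cells lacked ascorbic acid and AS cells lacked 2i, each at days 4 and 6. FBS cells (days 3, 6, 9 and 12) received doxycycline in serum-containing embryonic stem cell medium with no small molecule. The comparison groups were V6.5 embryonic stem cells (ESC), the same ESCs in A2S (ESC A2S, labelled day 2) and MEFs. The labels name neither the factors that doxycycline induces nor their transgene, and do not say that the 2 libraries of a group are separate cultures. The p-values therefore set a difference between groups against the spread of libraries within groups, estimated over all 32 libraries. That spread may be only technical.

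A dividing cell raises cyclin B and Cdk1 activity at the end of G2, condenses its chromosomes, attaches them to the spindle through kinetochores and, once the checkpoint is satisfied, lets the anaphase-promoting complex destroy cyclin B and securin. Most of the genes involved are transcribed periodically, from late S phase to mitosis, under the DREAM and MuvB complexes with B-Myb and FoxM1, which act at CHR elements and CCAAT boxes of their promoters. ESCs cycle fast with a short G1, whereas fibroblasts in culture slow and arrest, and irradiated feeders are growth-arrested by design.

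Promoters of the members were read because the members are known as a co-transcribed group. RefSeq promoter windows of the GRCm38.p6 (mm10) build, from 250 bases before to 50 bases after the gene start, were found for 43 of the 50 members. The CHR letters TTTGAA stood on either strand in 32 of 43 member windows (74.4%), against 20.2% of 27025 genes with a window of this length. The CHR-like letters TTCGAA stood in 5 of 43 (11.6%; Bub1, Bub1b, Gas2l3, Psrc1 and Top2a), against 1.80% of all windows. CCAAT stood in 35 of 43 (81.4%), against 41.1%, and TTTGAA and CCAAT stood together in 27 of 43 (62.8%), against 7.97%. The 2 CHR forms cannot overlap each other, CCAAT can share an end base with either, and a match describes letters only. Shown are 5 promoters with TTTGAA, whose genes recur in the results (Cdk1, Cdc20, Ube2c, Top2a and Hmgb2). Those of Psrc1 and Gas2l3, which held TTCGAA without TTTGAA, are shown too. Psrc1 went against most called members in several comparisons. Gas2l3 did so in A2S day 4 against day 2 and A2 day 6 against day 4, and when the latter difference was set against that in A2S. In the other comparisons between groups that called it, Gas2l3 moved with most called members. Bub1 also held TTCGAA without TTTGAA, and in the 6 comparisons that called it, it moved with most of the called members. Hmgb2, which held TTTGAA, also went against most called members in FBS day 12 against day 9 and A2S day 4 against day 2. It did so too in S2 day 6 against day 4. Each promoter shown is written 5′ to 3′ on the gene's strand, with matches to any of these motifs on either strand in capitals. A match on the other strand reads ATTGG for CCAAT and TTCAAA for the CHR letters. Each run covers the 100 bases before the RefSeq start, except for Psrc1, which covers 90 bases before it and 10 after.
Cdk1, chr10:69352913-69353012, strand minus: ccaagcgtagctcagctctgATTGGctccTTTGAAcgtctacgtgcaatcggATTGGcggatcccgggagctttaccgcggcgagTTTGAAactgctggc
Cdc20, chr4:118437344-118437443, strand minus: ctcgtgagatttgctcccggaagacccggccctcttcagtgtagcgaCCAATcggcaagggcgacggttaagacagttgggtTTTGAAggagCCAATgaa
Ube2c, chr2:164769829-164769928, strand plus: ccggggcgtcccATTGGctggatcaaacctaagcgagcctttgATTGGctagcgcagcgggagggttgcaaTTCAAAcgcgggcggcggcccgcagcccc
Top2a, chr11:99024190-99024289, strand minus: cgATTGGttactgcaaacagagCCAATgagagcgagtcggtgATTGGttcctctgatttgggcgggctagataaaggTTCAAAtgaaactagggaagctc
Hmgb2, chr8:57511743-57511842, strand plus: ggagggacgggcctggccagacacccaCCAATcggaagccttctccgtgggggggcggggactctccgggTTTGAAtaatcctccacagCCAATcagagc
Psrc1, chr3:108383714-108383813, strand plus: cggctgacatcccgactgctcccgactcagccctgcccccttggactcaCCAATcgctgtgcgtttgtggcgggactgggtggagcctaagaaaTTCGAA
Gas2l3, chr10:89443968-89444067, strand minus: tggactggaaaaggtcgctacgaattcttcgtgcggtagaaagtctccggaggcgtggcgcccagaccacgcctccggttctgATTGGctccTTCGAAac

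Levels below are UMI counts per 1000000 UMIs (CPM), summed over the kept cells of a library and scaled by TMM factors, and the values of the 2 libraries are given in the order A, B. Of 8334 barcodes, 684 that the authors listed as feeder cells were set apart and 7650 were kept, which left 1727490 to 8848775 UMIs per library. Of the kept barcodes, 28 occurred in at least 2 libraries. Libraries of a group differed by more than counting noise: their chi-square divided by its degrees of freedom ran between 1.59 and 8.10, highest for the AS day 4 pair. The marker lists followed the labels: 5 fibroblast markers summed to 8.53 and 7.03 CPM of the library total in ESC libraries (Postn at 0) and 7984 and 7331 CPM in MEF libraries. The 6 ESC markers summed to 2442 and 2118 CPM in ESC libraries and 0.286 and 1.58 CPM in MEF libraries (Pou5f1, Zfp42 and Dppa5a at 0). Macrophage and blood markers were higher in library B of FBS day 6 and FBS day 12 (97.5 and 176 CPM) than in library A (8.40 and 9.84 CPM). In sums over cells, fewer cells that express a gene and less RNA per cell cannot be told apart. Exosc9, Elovl1, Tnnc2 and Fam166a reach into the last 500 bases of Ccna2, Cdc20, Ube2c and Tubb4b, and whether counting used strand is not given in the sources used here, so these levels can include a neighbour's reads. Tubb4b, Hmgb2, Cks1b, Cks2 and Anp32e have closely related copies, and their levels are uncertain to that degree.

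The first comparison set the pluripotent end point, ESCs, against the starting fibroblasts. The summed level of the 50 members was 11311 and 11803 CPM in ESC libraries and 4757 and 5523 CPM in MEF libraries. With edgeR's quasi-likelihood test at a Benjamini-Hochberg adjusted p under 0.05, 43 of 50 members were higher in ESCs and none lower, where 36.3% of the 13229 genes tested were called higher and 35.5% lower (71.8% either way); at an unadjusted p under 0.05 the member counts were 43 higher and 1 lower. The median log2 fold change of the members was 1.25 and that of all genes 0.02. Cdk1, Ndc80, Nuf2, Hjurp, Ckap2l, Anln and Mki67 were not called.

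Among the cyclins, Cdk1 and their regulators, 8 of 9 rose. Cyclin B1 (Ccnb1), the partner that takes Cdk1 into mitosis, had 546 and 598 CPM in ESC cells, against 124 and 165 CPM in MEF cells, a log2 fold change of 1.98 ± 0.15 and an edgeR adjusted p of 3.63e-13. Cyclin A2 (Ccna2), which acts in S and G2 phase, had 425 and 444 CPM in ESC cells, against 183 and 224 CPM in MEF cells, and the mitotic kinase Plk1 had 205 and 192 CPM in ESC cells, against 72.3 and 94.1 CPM in MEF cells (log2 fold change 1.25 ± 0.16, edgeR adjusted p = 2.44e-08). Cdk1 itself did not follow: it had 201 and 202 CPM in ESC cells, against 141 and 199.9 CPM in MEF cells, with MEF library B at the ESC level (log2 fold change 0.23 ± 0.18, edgeR adjusted p = 0.238). Both partners of the anaphase-promoting complex rose. Its activator Cdc20 had 208 and 187 CPM in ESC cells, against 51.6 and 60.1 CPM in MEF cells. The ubiquitin-conjugating enzyme Ube2c had 444 and 515 CPM in ESC cells, against 164 and 227 CPM in MEF cells.

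Of 9 kinetochore, centromere and checkpoint genes, 6 rose. Bub1b, which encodes the checkpoint protein BubR1, had 158 and 165 CPM in ESC cells, against 36.2 and 43.6 CPM in MEF cells (log2 fold change 2.01 ± 0.12, edgeR adjusted p = 1.57e-15), and Cenpf, a kinetochore protein of G2 and mitosis, had 192 and 215 CPM in ESC cells, against 50.3 and 80.0 CPM in MEF cells. All 3 chromosomal passenger genes rose, with Birc5 (survivin) at 344 and 345 CPM in ESC cells, against 188 and 209 CPM in MEF cells. Of 13 spindle genes, 12 rose. Aurora A kinase (Aurka) had 190.0 and 181 CPM in ESC cells, against 65.4 and 80.2 CPM in MEF cells, and no ESC library overlapped a MEF library. Of the chromosome and chromatin genes, 6 of 7 rose. Hmgb2, a high-mobility-group protein that bends DNA, moved most of all members: it had 691 and 667 CPM in ESC cells, against 29.5 and 34.3 CPM in MEF cells (log2 fold change 4.40 ± 0.15, edgeR adjusted p = 3.71e-22). DNA topoisomerase IIα (Top2a), which disentangles sister chromatids, had 681 and 756 CPM in ESC cells, against 213 and 282 CPM in MEF cells, whereas Mki67, which coats mitotic chromosomes and is used as a proliferation marker, had 114 and 119.7 CPM in ESC cells, against 90.6 and 108 CPM in MEF cells (log2 fold change 0.23 ± 0.14, edgeR adjusted p = 0.135).

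Further genes of the cycle were counted from lists beside the members. Of 63 further mitotic genes 47 were higher in ESCs and 2 lower (Cdkn3 -0.74 and Zwint -0.62 on the log2 scale), and of 49 S-phase genes 46 were higher and 1 lower (Rrm1, -0.38). Of 17 cell cycle inhibitors 3 were higher and 10 lower, led by Cdkn2b (-4.39), Cdkn1a, which encodes p21 (-3.65), and Cdkn2c (-3.56). Of 19 transcription regulators of the G2/M program 12 were higher and none lower. Mybl2, which encodes B-Myb, led them with 88.7 and 71.2 CPM in ESC cells, against 3.48 and 5.06 CPM in MEF cells (log2 fold change 4.19 ± 0.25, edgeR adjusted p = 7.50e-16).

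**Figure D1:**
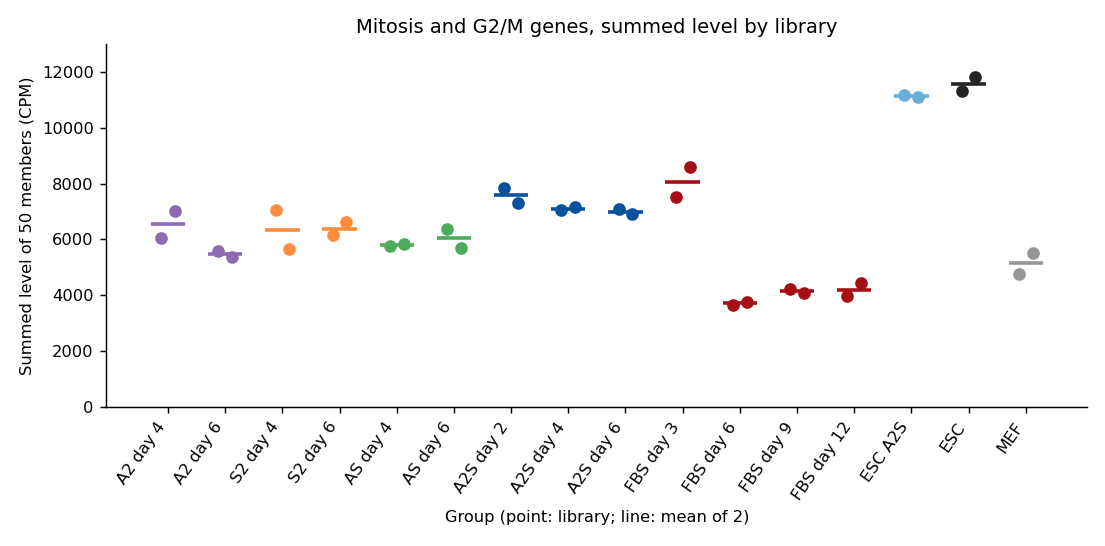
Summed level of the 50 members in each library (points, libraries A and B; y axis, CPM of the kept cells, TMM-scaled, from 0) for the 16 groups on the x axis. The ESC libraries stand at 11311 and 11803 CPM, the FBS day 6 libraries at 3652 and 3770.2 CPM and the MEF libraries at 4757 and 5523 CPM.

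Between ESC A2S cells and ESCs, members differed in both directions. The summed level was 11175 and 11099 CPM in ESC A2S libraries and 11311 and 11803 CPM in ESC libraries. Of 50 members 11 were higher and 16 lower, where 46.7% of all genes were called, 25.2% higher and 21.5% lower. The share of members called was thus not far above that of all genes, and the share called higher was below it. Cdk1, not called between ESCs and MEFs, had 339 and 340.1 CPM in ESC A2S cells, against 201 and 202 CPM in ESC cells (log2 fold change 0.76 ± 0.18, edgeR adjusted p = 7.56e-04). The β-tubulin Tubb4b had 586 and 573 CPM in ESC A2S cells, against 304 and 321 CPM in ESC cells (log2 fold change 0.89 ± 0.14, edgeR adjusted p = 6.55e-06). Cdca3, a promoter of mitotic entry, had 338 and 312 CPM in ESC A2S cells, against 191 and 200.1 CPM in ESC cells. In each of these genes both ESC A2S libraries were above both ESC libraries.

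The members that fell did not share a role. The ubiquitin ligase G2e3 had 37.8 and 38.4 CPM in ESC A2S cells, against 139.8 and 162 CPM in ESC cells (log2 fold change -1.99 ± 0.15, edgeR adjusted p = 2.92e-12). The lamin B receptor Lbr had 215 and 242 CPM in ESC A2S cells, against 462 and 493 CPM in ESC cells. The spindle protein Psrc1 had 93.9 and 82.3 CPM in ESC A2S cells, against 164 and 167 CPM in ESC cells (log2 fold change -0.91 ± 0.09, edgeR adjusted p = 2.10e-09). Among the panel genes, Aurka (272 and 246 CPM in ESC A2S cells, against 190.0 and 181 CPM in ESCs), Cdc20 (291 and 285, against 208 and 187 CPM), Ube2c (688 and 639, against 444 and 515 CPM) and Birc5 (478 and 479.8, against 344 and 345 CPM) rose. Mki67 (82.1 and 80.4 CPM in ESC A2S cells, against 114 and 119.7 CPM in ESCs) fell, and Hmgb2 (548 and 569, against 691 and 667 CPM) was not called (edgeR adjusted p = 0.0558). Of the spindle genes 3 of 13 rose and 6 fell, while both anaphase-promoting complex partners rose and both nuclear envelope genes fell. Feeder-listed barcodes made up 14.2% and 10.9% of the ESC A2S libraries and 3.50% and 3.53% of the ESC libraries, and with them kept in the sums the calls of Aurka (edgeR adjusted p = 0.0644), Cdc20 (0.0526) and Ube2c (0.168) were lost, and 6 members were higher and 22 lower. Of 63 further mitotic genes 19 were higher and 10 lower, of 49 S-phase genes 11 and 9, of 17 inhibitors 6 and 4 (Cdkn1a 1.91, Cdkn1c -3.57 on the log2 scale).

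In FBS, reprogramming cells at day 3 stood above MEFs. The summed level was 7524 and 8609 CPM in FBS day 3 libraries and 4757 and 5523 CPM in MEF libraries. Of 50 members 41 were higher and none lower (43 and 0 at an unadjusted p under 0.05), where 40.8% of all genes were called, 19.8% higher. The members' median log2 fold change was 0.64, against 0.00 over all genes. Hmgb2 moved most, with 114 and 118 CPM in FBS day 3 cells, against 29.5 and 34.3 CPM in MEF cells (log2 fold change 1.85 ± 0.15, edgeR adjusted p = 1.08e-11). Cdc20 had 167 and 197 CPM in FBS day 3 cells, against 51.6 and 60.1 CPM in MEF cells (log2 fold change 1.70 ± 0.14, edgeR adjusted p = 3.74e-11). Bub1b had 83.1 and 97.6 CPM in FBS day 3 cells, against 36.2 and 43.6 CPM in MEF cells. For these 3 genes the libraries of the 2 groups did not overlap.

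This comparison leaned on the feeder list. Listed barcodes made up 35.8% and 26.9% of the FBS day 3 libraries and 3.25% and 2.93% of the MEF libraries, and with them kept in the sums 15 members were called in place of 41. The calls of Aurka (edgeR adjusted p = 0.0728), Ccnb1 (0.393), Cdk1 (0.263), Mki67 (0.445) and Top2a (0.290) were among those lost. Those of Ccnb1 and Cdk1 were also lost without MEF library A (edgeR adjusted p = 0.0852 and 0.106), and those of Ccnb1 and Mki67 without FBS day 3 library B (0.127 and 0.0825). Of 63 further mitotic genes 37 were higher and 2 lower (Zwint and Cdc16), and of 49 S-phase genes 35 were higher and none lower. The inhibitors split, 3 of 17 higher and 3 lower, with Cdkn2a, which encodes p16 and p19Arf, at 2.01 on the log2 scale. The 5 fibroblast markers summed to 3149 and 3111 CPM in FBS day 3 libraries and 7984 and 7331 CPM in MEF libraries, and their part in the members' difference was not tested.

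Between days 3 and 6 in FBS nearly every member fell. At FBS day 6, 48 of 50 members were lower than at day 3 and 1 higher, where 37.8% of all genes were called, 19.0% lower and 18.8% higher. The median log2 fold change of the members was -1.26, against 0.00 over all genes. The summed level was 3652 and 3770.2 CPM in FBS day 6 libraries and 7524 and 8609 CPM in FBS day 3 libraries. All 9 cyclin and Cdk genes, both partners of the anaphase-promoting complex, 8 of 9 kinetochore genes, all 3 passenger genes, 12 of 13 spindle genes, all 4 cytokinesis genes, all 7 chromosome genes and both nuclear envelope genes fell. Ccna2 had 105 and 119 CPM in FBS day 6 cells, against 321 and 380.3 CPM in FBS day 3 cells (log2 fold change -1.65 ± 0.13, edgeR adjusted p = 2.61e-11). Plk1 had 53.6 and 47.9 CPM in FBS day 6 cells, against 147 and 177 CPM in FBS day 3 cells (log2 fold change -1.67 ± 0.18, edgeR adjusted p = 9.71e-09). Nuf2, an outer kinetochore subunit, had 14.5 and 15.0 CPM in FBS day 6 cells, against 52.2 and 52.6 CPM in FBS day 3 cells (log2 fold change -1.83 ± 0.21, edgeR adjusted p = 4.78e-08). In all 3 genes the day 6 libraries lay below the day 3 libraries with no overlap.

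Psrc1 went the other way. It encodes a microtubule-binding spindle protein, also known as Dda3 and described in other work as a p53-induced transcript. Psrc1 had 172 and 186 CPM in FBS day 6 cells, against 101 and 98.9 CPM in FBS day 3 cells (log2 fold change 0.84 ± 0.09, edgeR adjusted p = 1.68e-08), and both day 6 libraries were above both day 3 libraries. Hjurp, the chaperone that loads the centromeric histone Cenpa, was not called, at 5.58 and 7.48 CPM in FBS day 6 cells, against 5.16 and 9.39 CPM in FBS day 3 cells. Of 63 further mitotic genes 55 fell and none rose, and of 49 S-phase genes 42 fell and none rose. Among 17 inhibitors 9 rose and 2 fell, with Cdkn1c, which encodes p57, at 2.91 and Cdkn2a at 1.41 on the log2 scale. Mybl2 fell, with 2.51 and 3.96 CPM in FBS day 6 cells, against 6.88 and 8.45 CPM in FBS day 3 cells. The call of Hmgb2 (82.3 and 82.7 CPM in FBS day 6 cells, against 114 and 118 CPM in FBS day 3 cells) was lost with feeder-listed barcodes kept (edgeR adjusted p = 0.484) and without FBS day 6 library A (0.0565).

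After day 6 the members in FBS stayed low and moved one by one. At day 9 against day 6 Hmgb2 and Psrc1 were higher and none lower (9 and 4 at an unadjusted p under 0.05), where 9.37% of all genes were called, 4.90% higher and 4.47% lower. Hmgb2 had 238 and 191 CPM in FBS day 9 cells, against 82.3 and 82.7 CPM in FBS day 6 cells (log2 fold change 1.38 ± 0.14, edgeR adjusted p = 2.41e-07). Psrc1 had 276 and 279 CPM in FBS day 9 cells, against 172 and 186 CPM in FBS day 6 cells (log2 fold change 0.63 ± 0.09, edgeR adjusted p = 2.85e-05). With listed barcodes kept 6 members were called, and with only the libraries of these groups fitted 5. At day 12 against day 9, 6 members were higher and 3 lower, where 12.5% of all genes were called, 6.14% higher and 6.37% lower. Cenpf had 51.4 and 68.7 CPM in FBS day 12 cells, against 22.3 and 21.8 CPM in FBS day 9 cells (log2 fold change 1.45 ± 0.24, edgeR adjusted p = 1.37e-04). The actin and microtubule linker Gas2l3 had 30.0 and 39.7 CPM in FBS day 12 cells, against 17.5 and 12.0 CPM in FBS day 9 cells (log2 fold change 1.27 ± 0.24, edgeR adjusted p = 4.91e-04). Nusap1, Aurka, Top2a and G2e3 also rose. Hmgb2 fell, with 124 and 142 CPM in FBS day 12 cells, against 238 and 191 CPM in FBS day 9 cells. Psrc1 also fell, with 188 and 191 CPM in FBS day 12 cells, against 276 and 279 CPM in FBS day 9 cells. Cdc20 also fell, with 54.8 and 87.6 CPM in FBS day 12 cells, against 120.3 and 97.8 CPM in FBS day 9 cells. The count was 4 without FBS day 12 library A and 5 without FBS day 12 library B or FBS day 9 library A, and the calls of Aurka, Nusap1 and Top2a were lost without any 1 of the 4 libraries. With listed barcodes kept, 3 were higher and 4 lower.

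The panel shows the course gene by gene. Top2a stood at 353 and 419 CPM at day 3, 164 and 156 CPM at day 6, 189 and 175 CPM at day 9 and 249 and 247 CPM at day 12. Ccnb1 stood at 189 and 259 CPM at day 3, 85.7 and 88.4 CPM at day 6, 93.1 and 80.7 CPM at day 9 and 124 and 110.5 CPM at day 12. Both were highest at day 3, and in Top2a both day 12 libraries were above both day 6 libraries. Cdk1 stood at 254 and 300.5 CPM at day 3, 107 and 125 CPM at day 6, 136 and 143 CPM at day 9 and 87.7 and 134 CPM at day 12. Ccna2 stood at 321 and 380.3 CPM at day 3, 105 and 119 CPM at day 6, 82.4 and 92.3 CPM at day 9 and 99.8 and 117 CPM at day 12. Birc5 stood at 323 and 333 CPM at day 3, 112 and 116 CPM at day 6, 132 and 126 CPM at day 9 and 107 and 130.3 CPM at day 12. In these 3 genes every later library lay below both day 3 libraries. Cdc20 stood at 167 and 197 CPM at day 3, 80.9 and 76.5 CPM at day 6, 120.3 and 97.8 CPM at day 9 and 54.8 and 87.6 CPM at day 12. Ube2c stood at 331 and 389.6 CPM at day 3, 141 and 131 CPM at day 6, 166 and 185 CPM at day 9 and 183 and 196 CPM at day 12. Aurka stood at 118 and 125 CPM at day 3, 44.4 and 32.1 CPM at day 6, 25.2 and 29.9 CPM at day 9 and 42.7 and 41.2 CPM at day 12. Plk1 stood at 147 and 177 CPM at day 3, 53.6 and 47.9 CPM at day 6, 53.3 and 43.6 CPM at day 9 and 64.6 and 62.1 CPM at day 12. Mki67 stood at 130.4 and 169 CPM at day 3, 58.6 and 61.1 CPM at day 6, 47.5 and 48.3 CPM at day 9 and 58.3 and 72.8 CPM at day 12. For each of these 5 genes the day 3 libraries were the highest of the course. At day 12 the 6 ESC markers summed to 149.9 and 223 CPM of the library total, against 7.72 and 5.21 CPM at day 9, and the 5 fibroblast markers to 4415 and 4101 CPM, against 3063 and 2622 CPM at day 9. Their part in the member values was not tested.

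A2S cells at day 2 were set against MEFs. At day 2 the summed level was 7849.9 and 7292 CPM, against 4757 and 5523 CPM in MEFs, and 35 of 50 members were higher and none lower (37 and 1 at an unadjusted p under 0.05), where 49.8% of all genes were called, 25.6% higher. Hmgb2 had 161 and 155 CPM in A2S day 2 cells, against 29.5 and 34.3 CPM in MEF cells (log2 fold change 2.30 ± 0.14, edgeR adjusted p = 1.94e-14). Aurka had 154 and 149 CPM in A2S day 2 cells, against 65.4 and 80.2 CPM in MEF cells (log2 fold change 1.05 ± 0.12, edgeR adjusted p = 1.22e-08). Cenpa, the centromeric histone H3 variant, had 342 and 279 CPM in A2S day 2 cells, against 150.0 and 152 CPM in MEF cells. No library of A2S day 2 overlapped a MEF library in these genes. The count was 22 without MEF library A and 23 with listed barcodes kept, which were 27.2% and 22.8% of the A2S day 2 libraries. Top2a (361 and 331 CPM in A2S day 2 cells, against 213 and 282 CPM in MEFs) and Mki67 (149 and 132, against 90.6 and 108 CPM) lost their calls with listed barcodes kept (edgeR adjusted p = 0.232 and 0.211), without MEF library A (0.275 and 0.137) and without A2S day 2 library A (0.0950 and 0.102). Of 49 S-phase genes 38 were higher and none lower, of 63 further mitotic genes 32 higher and 4 lower, and of 17 inhibitors 3 higher and 5 lower. The 5 fibroblast markers summed to 1880 and 1918 CPM in A2S day 2 libraries and 7984 and 7331 CPM in MEF libraries, and their part in the members' difference was not tested.

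Days 4 and 6 in A2S were then each set against the time point before. At day 4 against day 2, 3 members were higher and 9 lower (5 and 14 at an unadjusted p under 0.05), a share near the 29.5% of all genes called. At day 6 against day 4, 1 was higher and 3 lower (2 and 6 at an unadjusted p under 0.05), where 24.6% of all genes were called, 10.8% higher and 13.8% lower. The share of members called at day 6 was thus below that of all genes. Psrc1 had 183 and 165 CPM in A2S day 4 cells, against 89.7 and 83.8 CPM in A2S day 2 cells (log2 fold change 1.01 ± 0.09, edgeR adjusted p = 6.13e-10). Hmgb2 had 255 and 325 CPM in A2S day 4 cells, against 161 and 155 CPM in A2S day 2 cells (log2 fold change 0.86 ± 0.13, edgeR adjusted p = 4.52e-06). Gas2l3 had 67.3 and 55.5 CPM in A2S day 4 cells, against 47.4 and 38.6 CPM in A2S day 2 cells. Those 3 went against the other called members. Ccna2 fell, with 273 and 276 CPM in A2S day 4 cells, against 437 and 398 CPM in A2S day 2 cells (log2 fold change -0.60 ± 0.12, edgeR adjusted p = 2.36e-04). Tpx2, the activator of Aurora A, also fell, with 123 and 118 CPM in A2S day 4 cells, against 202 and 184 CPM in A2S day 2 cells. The spindle protein Ckap2l also fell, with 45.0 and 49.3 CPM in A2S day 4 cells, against 80.0 and 75.3 CPM in A2S day 2 cells. At day 6 Bub1b rose, with 101 and 103 CPM in A2S day 6 cells, against 74.7 and 70.7 CPM in A2S day 4 cells (log2 fold change 0.48 ± 0.13, edgeR adjusted p = 0.00592). Kif23, a central spindle kinesin, fell, with 57.8 and 65.3 CPM in A2S day 6 cells, against 80.4 and 96.4 CPM in A2S day 4 cells. The cytokinesis scaffold Anln also fell, with 222 and 227 CPM in A2S day 6 cells, against 320.4 and 307 CPM in A2S day 4 cells. The nuclear envelope protein Tmpo also fell, with 264 and 259 CPM in A2S day 6 cells, against 321 and 334 CPM in A2S day 4 cells. The day 4 count was 5 or 6 without A2S day 2 library A or either A2S day 4 library, and the day 6 count was 1 or 2 without any 1 of its 4 libraries. Fitted without the other groups, the counts were 19 and 10, and DESeq2 called 3 higher and 4 lower at day 4. With listed barcodes kept, 11 members were higher and 1 lower at day 4: they were 27.2% and 22.8% of the day 2 libraries, against 0.417% of day 4 library A and none of library B.

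Panel levels in A2S were as follows. Top2a stood at 361 and 331 CPM at day 2, 323 and 405 CPM at day 4 and 369 and 372 CPM at day 6. Ccnb1 stood at 271 and 245 CPM at day 2, 276 and 315 CPM at day 4 and 263 and 232 CPM at day 6. Ube2c stood at 356 and 284 CPM at day 2, 379 and 349.5 CPM at day 4 and 345 and 375 CPM at day 6. In Ube2c the 3 days overlapped, and in Ccnb1 day 6 overlapped day 2. Hmgb2 stood at 161 and 155 CPM at day 2, 255 and 325 CPM at day 4 and 295 and 297 CPM at day 6, and both later days lay above day 2. Cdk1 stood at 226 and 188 CPM at day 2, 162 and 139 CPM at day 4 and 191 and 190.1 CPM at day 6. Birc5 stood at 343 and 306 CPM at day 2, 252 and 238 CPM at day 4 and 237 and 231 CPM at day 6. Mki67 stood at 149 and 132 CPM at day 2, 113 and 100.1 CPM at day 4 and 96.5 and 101 CPM at day 6. In Birc5 and Mki67 both day 2 libraries were the highest of the course. Cdc20 stood at 99.7 and 90.2 CPM at day 2, 104 and 114 CPM at day 4 and 124 and 109.7 CPM at day 6. Cenpf stood at 70.1 and 71.1 CPM at day 2, 73.8 and 67.6 CPM at day 4 and 85.5 and 78.5 CPM at day 6. Aurka stood at 154 and 149 CPM at day 2, 133 and 118 CPM at day 4 and 115 and 117 CPM at day 6. Plk1 stood at 183 and 141 CPM at day 2, 143 and 134 CPM at day 4 and 142 and 129.7 CPM at day 6. Both day 6 libraries lay above both day 2 libraries in Cdc20 and Cenpf and below them in Aurka, and the days overlapped in Plk1.

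At day 6 the 2 media stood far apart. The summed level was 7078 and 6909.8 CPM in A2S day 6 libraries and 3652 and 3770.2 CPM in FBS day 6 libraries. Of 50 members 44 were higher in A2S and none lower (46 and 0 at an unadjusted p under 0.05), where 52.7% of all genes were called, 26.4% higher and 26.2% lower. The members' median log2 fold change was 1.06, against 0.01 over all genes, and Ndc80, Hjurp, Ckap2l, Psrc1, Tubb4b and Anln were not called. Hmgb2 had 295 and 297 CPM in A2S day 6 cells, against 82.3 and 82.7 CPM in FBS day 6 cells (log2 fold change 1.84 ± 0.14, edgeR adjusted p = 1.75e-12). Aurka had 115 and 117 CPM in A2S day 6 cells, against 44.4 and 32.1 CPM in FBS day 6 cells (log2 fold change 1.57 ± 0.15, edgeR adjusted p = 1.83e-10). Cenpa had 323 and 343 CPM in A2S day 6 cells, against 116 and 112 CPM in FBS day 6 cells (log2 fold change 1.55 ± 0.11, edgeR adjusted p = 3.15e-13). All 9 cyclin and Cdk genes rose, Ccnb1 with 263 and 232 CPM in A2S day 6 cells, against 85.7 and 88.4 CPM in FBS day 6 cells. Psrc1 had 194 and 187 CPM in A2S day 6 cells, against 172 and 186 CPM in FBS day 6 cells (log2 fold change 0.09 ± 0.09, edgeR adjusted p = 0.393).

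The other lists were counted in the same comparison. Of 63 further mitotic genes 51 were higher in A2S and none lower, and of 49 S-phase genes 43 were higher and 1 lower (Rrm1, -0.74 on the log2 scale). Of 17 inhibitors 3 were higher and 10 lower, with Cdkn1c at -3.50 and Cdkn2b at -1.35. Of 19 regulators 9 were higher and 3 lower, and Mybl2 had 44.6 and 44.7 CPM in A2S day 6 cells, against 2.51 and 3.96 CPM in FBS day 6 cells (log2 fold change 3.84 ± 0.33, edgeR adjusted p = 2.69e-11). The 5 fibroblast markers summed to 958 and 705 CPM of the library total in A2S day 6 libraries and 4226 and 3869 CPM in FBS day 6 libraries, and the 6 ESC markers to 463 and 548 CPM in A2S and 2.44 and 0.848 CPM in FBS (Zfp42, Esrrb and Dppa5a at 0). Their part in the members' difference was not tested.

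**Figure D2:**
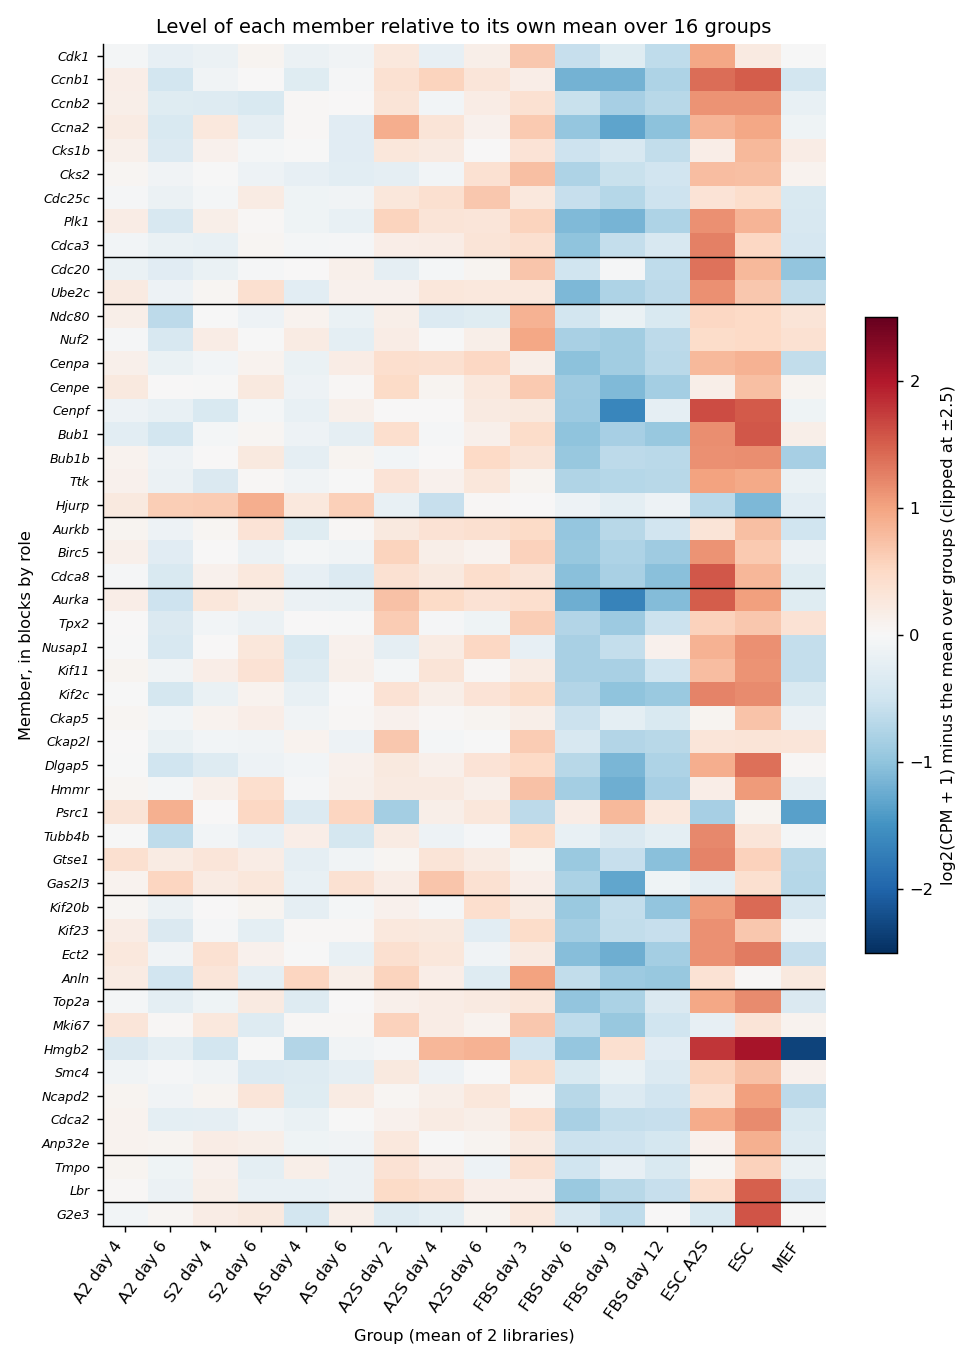
Level of each of the 50 members (rows, by role) in each of the 16 groups (columns), as log2(CPM + 1) of the group mean minus the gene's own mean over the 16 groups, with colours held at plus and minus 2.5. The ESC and ESC A2S columns are high for most rows and the FBS day 6, 9 and 12 columns low, while the Psrc1 row is high in A2 day 6 (298 and 288 CPM) and FBS day 9 (276 and 279 CPM).

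Media that lack 1 component of A2S were set against A2S at day 6, and the 3 media were not tested against each other. The 3 comparisons share the A2S day 6 libraries, whose members summed to 7078 and 6909.8 CPM. In A2 (no SGC0946) the sum was 5566 and 5376 CPM, and 1 member was higher and 23 lower than in A2S, where 30.8% of all genes were called, 14.1% lower. In S2 (no ascorbic acid) it was 6139.8 and 6618 CPM, with 1 higher and 4 lower, where 16.1% were called, 8.35% higher and 7.73% lower, so the share of members called lower was near that of all genes. In AS (no 2i) it was 6375 and 5693 CPM, with 2 higher and 14 lower, where 38.6% were called, 17.7% lower. The S2 count was 2 or 3 without A2S day 6 library A or either S2 library, and 12 with only the 2 groups fitted, and with RLE factors or DESeq2 it was 4, none higher. The AS count was 9 without A2S day 6 library A and 4 without AS day 6 library B. In each medium Hmgb2 fell most of the called members at 20 CPM or more, with 139 and 133 CPM in A2, 171 and 149 CPM in S2 and 129.6 and 176 CPM in AS, against 295 and 297 CPM in A2S. No library of the 3 media reached the lower A2S library. The log2 fold changes were -1.12 ± 0.13, -0.88 ± 0.13 and -0.96 ± 0.13, with edgeR adjusted p of 6.14e-08, 1.60e-05 and 5.55e-07.

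In A2 at day 6, 7 of 9 cyclin and Cdk genes, 4 of 9 kinetochore genes, all 3 passenger genes, 5 of 13 spindle genes and 3 of 7 chromosome genes fell. Ccnb1 had 149 and 142 CPM in A2 day 6 cells, against 263 and 232 CPM in A2S day 6 cells. Aurka had 61.2 and 63.9 CPM in A2 day 6 cells, against 115 and 117 CPM in A2S day 6 cells (log2 fold change -0.89 ± 0.14, edgeR adjusted p = 5.55e-06). Nusap1, a spindle microtubule bundler, had 51.7 and 60.3 CPM in A2 day 6 cells, against 108 and 106 CPM in A2S day 6 cells (log2 fold change -0.93 ± 0.19, edgeR adjusted p = 3.48e-04). Psrc1 was the member that rose, with 298 and 288 CPM in A2 day 6 cells, against 194 and 187 CPM in A2S day 6 cells (log2 fold change 0.62 ± 0.09, edgeR adjusted p = 1.24e-06). Of 49 S-phase genes 21 fell and none rose, of 63 further mitotic genes 27 fell and 1 rose (Anapc1), and of 17 inhibitors 7 rose and 2 fell. The calls of Birc5 and Top2a were lost without A2 day 6 library A (edgeR adjusted p = 0.0686) and library B (0.0585). The fibroblast markers summed to 2415 and 2098 CPM of the library total in A2 day 6 libraries and 958 and 705 CPM in A2S day 6 libraries, and their part was not tested.

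In AS at day 6, 6 of 9 cyclin and Cdk genes fell. The Cdk1-activating phosphatase Cdc25c had 23.0 and 20.3 CPM in AS day 6 cells, against 36.6 and 38.0 CPM in A2S day 6 cells (log2 fold change -0.78 ± 0.19, edgeR adjusted p = 0.00186). Cdca8, the passenger protein borealin, had 104 and 105 CPM in AS day 6 cells, against 172 and 189 CPM in A2S day 6 cells (log2 fold change -0.79 ± 0.12, edgeR adjusted p = 6.73e-06). Anln rose, with 299.7 and 317 CPM in AS day 6 cells, against 222 and 227 CPM in A2S day 6 cells, and Psrc1, with 229 and 231 CPM in AS day 6 cells, against 194 and 187 CPM in A2S day 6 cells; both calls, and those of Ccna2 and Plk1, were lost without A2S day 6 library A or AS day 6 library B (edgeR adjusted p from 0.0568 to 0.120). Of 49 S-phase genes 30 fell and none rose, of 63 further mitotic genes 19 fell and 2 rose, and of 17 inhibitors 9 rose and 1 fell. In S2 at day 6, Cenpa had 248 and 246 CPM in S2 day 6 cells, against 323 and 343 CPM in A2S day 6 cells (log2 fold change -0.43 ± 0.10, edgeR adjusted p = 0.00343). Cyclin B2 (Ccnb2) had 80.0 and 78.2 CPM in S2 day 6 cells, against 120.2 and 115 CPM in A2S day 6 cells. Psrc1 had 225 and 229 CPM in S2 day 6 cells, against 194 and 187 CPM in A2S day 6 cells (log2 fold change 0.25 ± 0.09, edgeR adjusted p = 0.0465). That call of Psrc1 was lost under each of the other settings tried, with edgeR adjusted p of 0.0579 with the replicate block and 0.161 with no count filter, and that of Ccnb2 without A2S day 6 library A or either S2 library. Mybl2 was lower in all 3 media, with 14.4 and 7.88 CPM in A2, 8.61 and 9.04 CPM in S2 and 6.78 and 12.2 CPM in AS, against 44.6 and 44.7 CPM in A2S. The fibroblast markers summed to 1290.4 and 904 CPM of the library total in S2 and 2751 and 2745 CPM in AS.

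The rest of the panel at day 6 ran as follows. Top2a had 272 and 265 CPM in A2, 339 and 399 CPM in S2 and 350.0 and 292 CPM in AS, against 369 and 372 CPM in A2S. Ube2c had 299 and 251 CPM in A2, 369 and 426 CPM in S2 and 370.4 and 272 CPM in AS, against 345 and 375 CPM in A2S. Cdc20 had 98.5 and 84.8 CPM in A2, 115 and 105 CPM in S2 and 131 and 113 CPM in AS, against 124 and 109.7 CPM in A2S. S2 and A2S overlapped in all 3. Cdk1 had 149 and 149 CPM in A2, 178 and 186 CPM in S2 and 182 and 145 CPM in AS, against 191 and 190.1 CPM in A2S. Ccna2 had 170.4 and 168 CPM in A2, 188 and 189 CPM in S2 and 192 and 172 CPM in AS, against 239 and 234 CPM in A2S. Birc5 had 175 and 187 CPM in A2, 207 and 189 CPM in S2 and 214 and 199.5 CPM in AS, against 237 and 231 CPM in A2S. In Ccna2 and Birc5 every library of the 3 media was below both A2S libraries. Plk1 had 87.7 and 78.8 CPM in A2, 98.8 and 124 CPM in S2 and 103 and 90.3 CPM in AS, against 142 and 129.7 CPM in A2S. Mki67 had 94.9 and 97.3 CPM in A2, 68.9 and 81.3 CPM in S2 and 106 and 86.2 CPM in AS, against 96.5 and 101 CPM in A2S. Cenpf had 62.5 and 60.9 CPM in A2, 64.1 and 72.3 CPM in S2 and 86.3 and 67.3 CPM in AS, against 85.5 and 78.5 CPM in A2S. All libraries of the 3 media were below A2S in Plk1, the S2 libraries in Mki67, and the A2 and S2 libraries in Cenpf.

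Within each medium, day 6 was also set against day 4. In A2, whose members summed to 5566 and 5376 CPM at day 6 and 6059.7 and 7033 CPM at day 4, 2 members were higher and 11 lower, where 14.2% of all genes were called, 6.74% higher and 7.45% lower. Aurka had 61.2 and 63.9 CPM in A2 day 6 cells, against 87.3 and 116 CPM in A2 day 4 cells (log2 fold change -0.68 ± 0.14, edgeR adjusted p = 9.37e-04). Anln had 191 and 208 CPM in A2 day 6 cells, against 268 and 373 CPM in A2 day 4 cells. Tubb4b had 165 and 162 CPM in A2 day 6 cells, against 265 and 238 CPM in A2 day 4 cells. In these 3 genes both day 6 libraries lay below both day 4 libraries. Psrc1 and Gas2l3 rose, Psrc1 with 298 and 288 CPM in A2 day 6 cells, against 199 and 195 CPM in A2 day 4 cells (log2 fold change 0.57 ± 0.09, edgeR adjusted p = 1.95e-05). The count was 5 without A2 day 4 library B, 7 without A2 day 6 library A and 6 without A2 day 6 library B. In S2, with 6139.8 and 6618 CPM at day 6 and 7053 and 5648 CPM at day 4, 2 were higher and 4 lower, where 13.0% were called, 5.42% higher and 7.57% lower. The share of S2 members called was near that of all genes. Psrc1 had 225 and 229 CPM in S2 day 6 cells, against 154 and 163 CPM in S2 day 4 cells (log2 fold change 0.52 ± 0.09, edgeR adjusted p = 2.13e-04). Hmgb2 had 171 and 149 CPM in S2 day 6 cells, against 130.5 and 104 CPM in S2 day 4 cells. Mki67 had 68.9 and 81.3 CPM in S2 day 6 cells, against 133 and 94.1 CPM in S2 day 4 cells. The days did not overlap in these genes, and Psrc1 and Hmgb2 were higher and Mki67 lower at day 6. The count was 2 without S2 day 4 library A and 1 without S2 day 6 library A. In AS, with 6375 and 5693 CPM at day 6 and 5752 and 5844 CPM at day 4, 7 were higher and 2 lower, where 22.1% were called, 11.1% higher and 11.0% lower. The share of AS members called was not above that of all genes. Psrc1 had 229 and 231 CPM in AS day 6 cells, against 129 and 118 CPM in AS day 4 cells (log2 fold change 0.90 ± 0.09, edgeR adjusted p = 1.18e-08). G2e3 had 65.7 and 46.3 CPM in AS day 6 cells, against 39.2 and 33.2 CPM in AS day 4 cells. Hmgb2 had 129.6 and 176 CPM in AS day 6 cells, against 104 and 90.8 CPM in AS day 4 cells. Tubb4b had 198 and 175 CPM in AS day 6 cells, against 207 and 357 CPM in AS day 4 cells. The count was 4 without AS day 6 library A and 1 with only the AS groups fitted. The Tubb4b call was lost without AS day 4 library B (edgeR adjusted p = 0.568), the library that held 357 CPM.

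Whether the difference between days 6 and 4 itself differed from that in A2S was tested as an interaction in the same fit. For A2, 2 members had a higher difference and 4 a lower one, where 7.91% of all genes were called. For AS, 4 were higher and 1 lower, where 10.9% were called. For S2 edgeR called none, where 3.39% of all genes were called; 4 members had an unadjusted p under 0.05, and DESeq2 also called none. The A2 count was 0 to 3 without A2S day 4 library A, either A2S day 6 library, A2 day 4 library B or either A2 day 6 library, and 14 with only these groups fitted. The AS count was 1 to 3 without any of the A2S libraries, AS day 4 library B or either AS day 6 library, 1 with only these groups fitted and 3 with DESeq2. Gas2l3 had 0.83 ± 0.23 for A2 and 0.93 ± 0.24 for AS on the log2 scale, and Psrc1 0.44 ± 0.12 and 0.77 ± 0.13. The A2 and AS interactions share the A2S libraries.

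**Figure D3:**
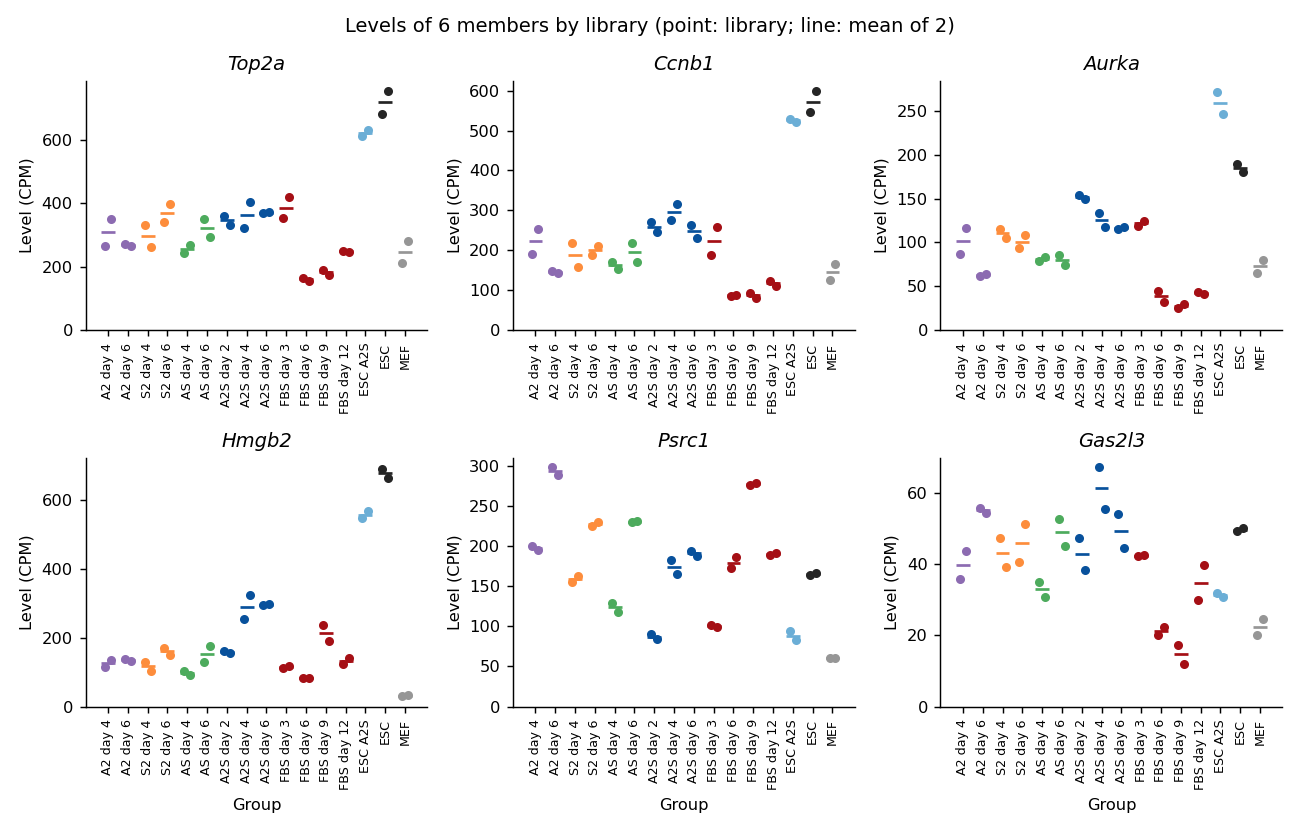
Level in each library (points; y axis, CPM of the kept cells, TMM-scaled, from 0) of Top2a, Ccnb1, Aurka, Hmgb2, Psrc1 and Gas2l3 in the 16 groups on the x axis. Psrc1 reaches 298 and 288 CPM in A2 day 6 and 276 and 279 CPM in FBS day 9, where Aurka stands at 61.2 and 63.9 and 25.2 and 29.9 CPM.

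Across the 18 comparisons Psrc1 was called higher in 12 and lower in 2, the 2 being ESC A2S against ESC and FBS day 12 against FBS day 9. Many of these comparisons share groups and do not count as separate evidence. Hmgb2 was called higher in 8 and lower in 7, Gas2l3 higher in 8 and lower in 3, and Hjurp higher in 1 and lower in 0. Psrc1 in A2 day 6 cells (298 and 288 CPM) and FBS day 9 cells (276 and 279 CPM) exceeded its level in ESCs (164 and 167 CPM). In MEFs it had 60.1 and 60.8 CPM, its lowest of the 16 groups.

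The last days of both courses were compared with ESCs, which both comparisons share. A2S day 6 cells summed to 7078 and 6909.8 CPM and ESCs to 11311 and 11803 CPM, with 1 member higher and 38 lower, where 54.5% of all genes were called, 25.5% lower. FBS day 12 cells summed to 3960.4 and 4428 CPM, with none higher and 48 lower (2 and 48 at an unadjusted p under 0.05), where 66.3% were called, 34.4% higher and the others lower. The members' median log2 fold change was -0.69 in A2S day 6 and -1.52 in FBS day 12. In A2S day 6 G2e3 had 53.5 and 51.2 CPM in A2S day 6 cells, against 139.8 and 162 CPM in ESC cells (log2 fold change -1.53 ± 0.15, edgeR adjusted p = 3.74e-10). The checkpoint kinase Bub1 had 52.9 and 43.8 CPM in A2S day 6 cells, against 128 and 134 CPM in ESC cells (log2 fold change -1.44 ± 0.18, edgeR adjusted p = 9.30e-08). Ect2, the activator of RhoA in cytokinesis, had 129 and 104 CPM in A2S day 6 cells, against 307 and 306 CPM in ESC cells. Hjurp was higher, with 9.84 and 4.83 CPM in A2S day 6 cells, against 2.93 and 2.57 CPM in ESC cells, and its call was lost without A2S day 6 library A or either ESC library (edgeR adjusted p from 0.0702 to 0.323). In FBS day 12 Bub1 had 12.1 and 32.6 CPM in FBS day 12 cells, against 128 and 134 CPM in ESC cells. Hmgb2 had 124 and 142 CPM in FBS day 12 cells, against 691 and 667 CPM in ESC cells (log2 fold change -2.35 ± 0.14, edgeR adjusted p = 1.24e-15). The kinesin Kif20b had 17.9 and 16.8 CPM in FBS day 12 cells, against 95.4 and 95.8 CPM in ESC cells. The libraries of the 2 groups did not overlap in these genes. Of 17 inhibitors 13 were higher and 2 lower in A2S day 6, and 14 higher and 2 lower in FBS day 12. Cdkn1a was at 3.55 and 3.41 and Cdkn2b at 3.10 and 4.29 on the log2 scale.

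Cells on the authors' feeder list were then set against the kept cells of the same libraries. How the authors chose the listed barcodes is not given in the sources used here, and if expression was used, the members' difference may be part of that choice. In the 17 libraries with at least 10 cells of each kind, fitted with the library as a block, 48 of 49 members tested were lower in listed cells and none higher, where 60.3% of 10115 genes were called, 31.1% lower and 29.3% higher. The median log2 fold change of the members was -3.81, and -0.04 over all genes. The summed level in listed cells was from 0.106 (FBS day 3 library B) to 0.334 (A2 day 6 library A) of that in kept cells, so it was lower in each of the 17 libraries. In FBS day 3 library B listed cells held 860.0 CPM and kept cells 8143 CPM. Hjurp was not tested.

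Ccnb1 had lowest 0, median 5.96 and highest 43.4 CPM in listed cells, against 83.4, 156 and 535 CPM in kept cells (log2 fold change -4.68 ± 0.28, edgeR adjusted p = 6.38e-11). Top2a had lowest 0, median 15.2 and highest 103 CPM in listed cells, against 152, 267 and 647 CPM in kept cells (log2 fold change -3.94 ± 0.31, edgeR adjusted p = 2.87e-09), Plk1 lowest 0, median 5.80 and highest 25.6 CPM in listed cells, against 46.9, 122 and 260.3 CPM in kept cells, and Cdk1 lowest 0, median 20.6 and highest 68.3 CPM in listed cells, against 87.4, 179 and 348 CPM in kept cells. In none of these 4 genes did listed cells exceed kept cells in any of the 17 libraries. Psrc1 was the tested member with no call: it had lowest 73.2, median 113 and highest 256 CPM in listed cells, against 57.0, 114 and 289 CPM in kept cells (log2 fold change -0.12 ± 0.15, edgeR adjusted p = 0.510), and was higher in listed cells in 7 of 17 libraries. Tubb4b (log2 fold change -0.51 ± 0.14, edgeR adjusted p = 0.00325), the microtubule polymerase Ckap5 (log2 fold change -0.94 ± 0.12, edgeR adjusted p = 1.59e-06) and Gtse1, a microtubule-associated protein expressed in S and G2 phase (log2 fold change -1.05 ± 0.22, edgeR adjusted p = 3.34e-04), fell least among the called members. All 47 S-phase genes tested and 57 of 60 further mitotic genes fell, with Zwint higher (0.33 on the log2 scale). Of 17 inhibitors 8 rose and 4 fell, with Cdkn2b at 2.10, the cyclin G2 gene Ccng2 at 1.72 and Cdkn1a at 1.01. Of 18 regulators 13 fell and none rose, including Foxm1 (-3.34), E2f7 (-3.47) and Mybl2 (-2.82), and 4 of 5 fibroblast markers rose. The epithelial marker tested, 1 of its list, was lower (-3.94 on the log2 scale). The macrophage and blood marker tested, Cd68, was higher in listed cells (log2 fold change 2.01 ± 0.41, edgeR adjusted p = 2.51e-04). The 5 genes of that list summed to 400 CPM in listed cells pooled over libraries, against 3.63 to 176 CPM in the kept cells of the 32 libraries. The part of these markers in the members' difference was not tested.

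Single cells were compared after thinning each to 2000 UMIs, so that depth did not set how many members were seen. Of the kept cells 7343 had 2000 UMIs or more. Their median was 9 member UMIs, with quartiles of 2 and 20, and 4.89% held none. The 684 listed cells had a median of 1, quartiles of 1 and 3, and 22.2% with none. Median unthinned totals were 11320.5 UMIs in listed cells and 13095 in kept cells. At least 10 of the 50 members had a UMI in 2.92% of listed cells (20 cells) and 42.5% of kept cells (3119). This class is a range of a count and not a phase, and 239 kept cells held 9 members and 193 held 10. The 20 listed cells came from 6 libraries, 9 of them from S2 day 4 (19.0% and 18.5% of the listed cells of libraries A and B) and 4 from AS day 4 library B (16.7%). Psrc1 had a UMI in 20.9% of listed and 25.5% of kept cells, Top2a in 4.82% and 31.6%, and Ccnb1 in 2.78% and 24.2%. Tubb4b had one in 30.8% and 36.1%. Whether the UMIs of members in listed cells came from free RNA or from those cells was not tested.

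**Figure D4:**
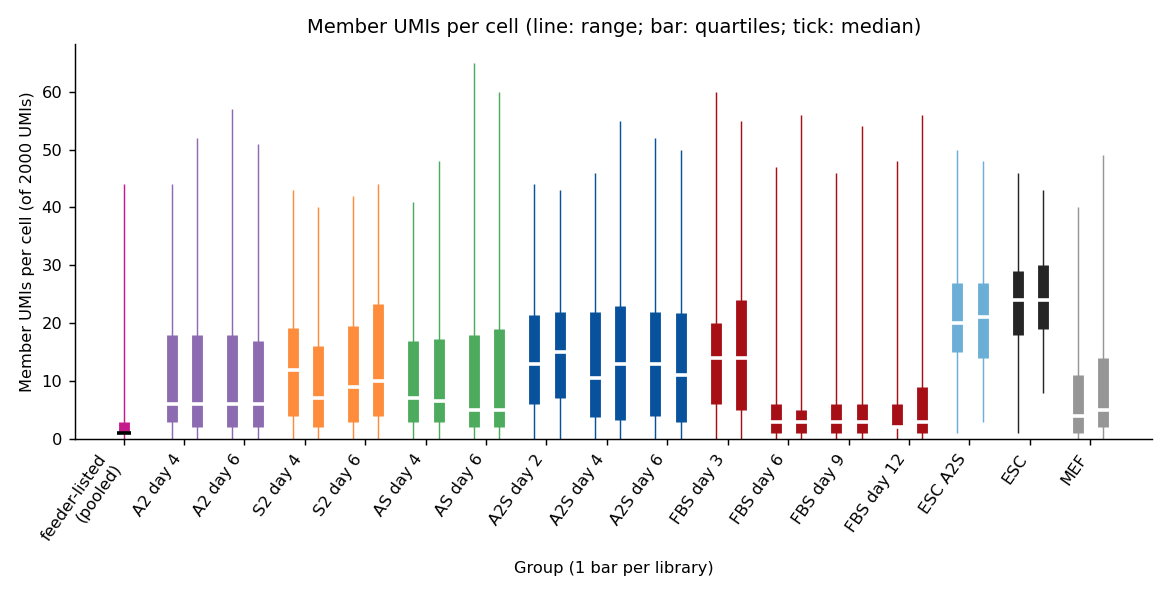
Member UMIs per cell after thinning to 2000 UMIs (y axis, UMIs from 0): thin lines span the lowest to the highest cell, thick bars the quartiles, and ticks mark the median, for feeder-listed cells pooled over libraries and for the kept cells of each library of the 16 groups. The median is 1 in listed cells, 3 in both FBS day 6 libraries, 24 in both ESC libraries and 4 and 5 in the MEF libraries.

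The share of kept cells with at least 10 members was then taken per library. It was 85.3% and 86.3% in ESC A2S libraries, 92.6% and 93.8% in ESC libraries and 21.8% and 30.9% in MEF libraries. In FBS it was 55.2% and 55.5% at day 3, 16.3% and 14.0% at day 6, 16.3% and 17.0% at day 9 and 19.0% and 20.3% at day 12. At this limit and thinning every FBS library after day 3 was below both MEF libraries. For day 12 that order depended on the limit and the thinning. Its group mean with thinning to 1000 UMIs was 11.5%, against 9.23% in MEFs. At 15 or more members these means were 12.6% and 14.0%, and with thinning to 4000 UMIs 23.5% and 39.7%. The means of FBS days 6 and 9 were below that of MEFs in each of these settings. In A2S it was 54.7% and 57.9% at day 2, 47.8% and 53.2% at day 4 and 53.2% and 47.9% at day 6. At day 6 it was 37.8% and 34.0% in A2, 41.0% and 46.4% in S2 and 33.1% and 34.3% in AS, and at day 4 34.0% and 40.1%, 48.4% and 37.0% and 36.7% and 37.3% in the same order. At this limit libraries of all 3 media at day 6 were below both A2S libraries. For S2 that order depended on the limit. With thinning to 1000 UMIs the day 6 group mean was 23.5% in S2 and 21.8% in A2S. At 15 or more members it was 28.9% and 29.2%, and with thinning to 4000 UMIs 55.5% and 65.9%. The means of A2 (14.5% at 1000 UMIs and 19.6% at 15 or more members) and AS (20.1% and 24.0%) were below A2S. With 2 libraries a group, no exact permutation test can pass 0.05, and the shares were not tested.

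The class with at least 10 members is defined by detection, so each of its cells holds at least 10 member UMIs. The shares and means of member UMIs that follow come in part from that definition. In the median library 79.2% of the member UMIs of thinned cells lay in cells of the class, from 61.7% to 97.4%. Those cells held from 21.0 to 29.5 member UMIs on average, and the remaining cells from 2.67 to 10.2. Their unthinned UMI totals had a median 1.16 times that of the remaining cells and were higher in 30 of 32 libraries. Their S-phase UMIs per thinned cell were a median 2.17 times those of the remaining cells, higher in 29 of 32. Not higher were ESC library B (0.999 times) and ESC A2S libraries A and B (0.944 and 0.956 times). ESC library A stood at 1.12 times, and the FBS day 9 and 12 libraries at 4.16 to 5.12 times. In each ESC library the remaining cells numbered only 10. The doublet caller marked 80.5% of the kept cells of ESC A2S library A, and 0.809% to 12.3% in the other libraries. Called doublets were 12.5% of the class and 4.64% of the rest with that library, and 4.62% and 3.74% without it. With called doublets left out the mean share over the 32 libraries was 43.6%, against 43.7% with them kept.

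Members differed in how closely they followed the others from cell to cell. The correlation of a member with the sum of the other 49 across the kept cells of a library (thinned, natural log of UMIs plus 1) had a median over libraries of 0.556 for Top2a, 0.521 for Ccna2, 0.516 for Ube2c, 0.488 for Birc5 and 0.484 for Ccnb1. The lowest medians were 0.0888 for Hjurp, 0.124 for Psrc1, 0.130 for Ndc80, 0.150 for G2e3 and 0.198 for Gas2l3. Cells of a library share its depth and preparation, and for sparse genes a weak correlation is no finding: Hjurp and Ndc80 averaged 0.0158 and 0.0311 UMIs per thinned cell. Gas2l3 and G2e3 were also sparse, at 0.0753 and 0.106. Psrc1 was not sparse in this sense, with 0.335 UMIs per thinned cell, beside 0.340 for Cdk1, whose median correlation was 0.423.

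Finally, cells with a UMI of Nanog, a pluripotency factor, or Epcam, an epithelial adhesion molecule, were set against cells with neither in the same library, both thinned to 2000 UMIs. The 12 libraries with at least 10 cells of each class were those of A2S day 4, A2S day 6, FBS day 12, S2 day 4, S2 day 6 and AS day 6. Of the 50 members 40 passed the filter on low counts, so counts over them are not counts over all members. Of these 29 were higher in positive cells and none lower, where 22.0% of 4896 genes were called, 8.21% higher and 13.8% lower. The summed level in positive cells was 2.55 and 2.85 times that in double-zero cells in FBS day 12, where positive cells held 10993 and 12155 CPM and double-zero cells 4307 and 4266 CPM. It was 1.18 and 1.67 times in A2S day 6 and 0.872 and 0.916 times in S2 day 4, the group where double-zero cells held more. Positive cells were few in FBS day 12 (20 and 18) and S2 day 4 (13 and 11), against 131 and 123 in A2S day 6. Without TMM scaling, S2 day 4 library B turned round, with a mean of 11.3 member UMIs per thinned cell in positive cells and 10.9 in double-zero cells.

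Ccnb1 had lowest 78.7, median 383 and highest 667 CPM in positive cells, against 66.8, 176 and 402 CPM in double-zero cells (log2 fold change 1.09 ± 0.16, edgeR adjusted p = 7.22e-07), higher in 11 of 12 libraries. Ube2c had lowest 236, median 575 and highest 816 CPM in positive cells, against 171, 340.0 and 427 CPM in double-zero cells (log2 fold change 0.81 ± 0.13, edgeR adjusted p = 4.47e-06), higher in 11 of 12. Cenpf (edgeR adjusted p = 5.86e-04), Hmgb2 (log2 fold change 0.87 ± 0.16, edgeR adjusted p = 2.11e-05) and Birc5 (log2 fold change 0.87 ± 0.16, edgeR adjusted p = 3.62e-05) rose. Psrc1 (log2 fold change 0.23 ± 0.14, edgeR adjusted p = 0.243), Anln (log2 fold change 0.22 ± 0.14, edgeR adjusted p = 0.288) and Mki67 (log2 fold change 0.47 ± 0.23, edgeR adjusted p = 0.134) were not called. Of 35 S-phase genes 21 rose and none fell, of 36 further mitotic genes 17 rose and none fell, and of 8 inhibitors 4 fell and none rose. The 3 fibroblast markers tested were lower in positive cells, and their part was not tested. Thinned to 1000 UMIs 11 members were called, and with no thinning 50, so the count depends on depth.

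**Figure D5:**
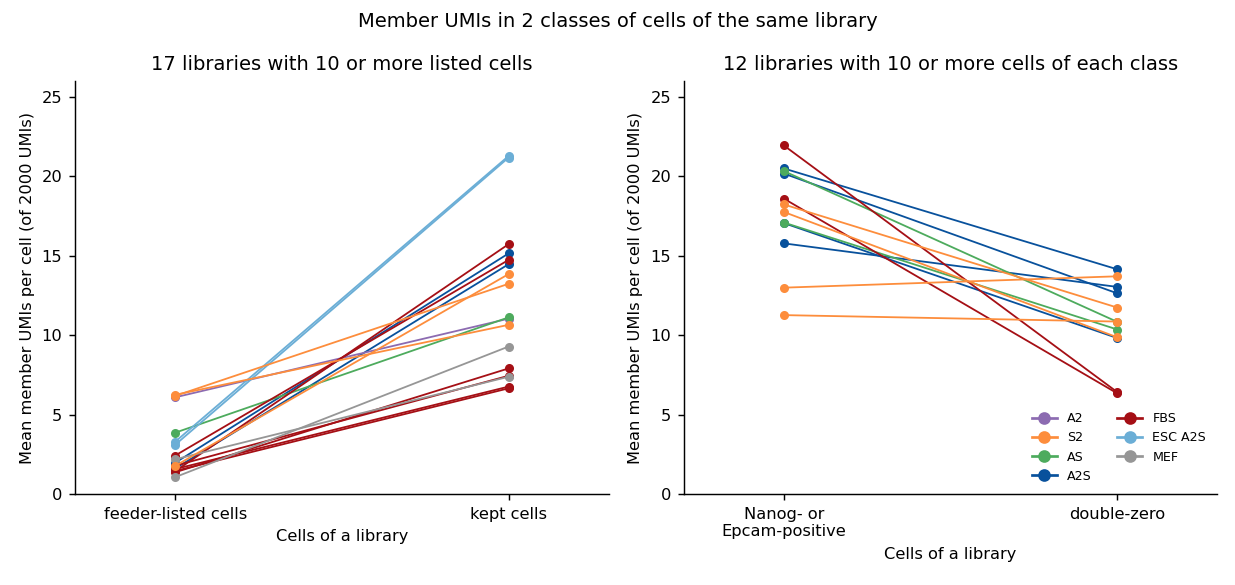
Mean member UMIs per cell after thinning to 2000 UMIs (y axis, UMIs from 0) in 2 kinds of cells of the same library, joined by a line per library and coloured by medium or cell type: feeder-listed and kept cells (left, 17 libraries), and Nanog- or Epcam-positive and double-zero cells (right, 12 libraries). Listed cells lie below kept cells in each library, and positive cells lie above double-zero cells except in S2 day 4 library A, where they had 13.0 UMIs against 13.7.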

How the data were processed

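The authors deposited 1 table of UMI counts (whole numbers, genes by cells) for each of 32 samples, made with the ddSEQ SureCell 3' chemistry, per the labels. The submitters' processing notes name bcl2fastq 2.19, STAR and mm10. The sources used here do not give the annotation or the counting program. A deposited list names irradiated feeder MEFs by barcode and group; its treatment and time columns were not used. It set apart 684 cells, and its barcodes were found 5 times in libraries of another group.

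Counts of kept cells were summed per library (1727490 to 8848775 UMIs). The main test was edgeR 4.0.16 (R 4.3.3; quasi-likelihood, TMM, filterByExpr), fitted once to 32 libraries, with Benjamini-Hochberg adjustment over 13229 genes and a threshold of 0.05. The errors of log2 fold changes are standard errors computed from the test statistic. Listed against kept cells, and Nanog- or Epcam-positive against double-zero cells, had the library as a block. The edgeR test was also run on simulated counts with known changes in A2 day 6 only. No other group differed there, so that setting was simpler than these data. Cells were thinned to 2000 UMIs with a fixed seed. Scrublet in scanpy 1.11.5 called 587 kept cells (7.67%) doublets, 301 of them in ESC A2S library A (80.5% of its kept cells), and 3.93% without that library; called cells were kept. Promoters from RefSeq were matched by symbol for 43 of 50 members.

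The members and gene lists were chosen with earlier results of these data known. The text names a panel of 12 members and, per comparison, up to 3 called members each way at 20 CPM or more, members against the majority, the 5 highest and 5 lowest cell correlations, and up to 3 called genes of each other list. A few further genes were named after their values were seen. The alternatives were other size factors (RLE), testing genes of any count, DESeq2 1.42.0, a replicate block, listed barcodes kept, only cells of 2000 UMIs or more, only the compared groups, each library left out, and other thinning and class limits. Leaving out called doublets was chosen after seeing the data.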

Additional observations from a re-analysis of the deposited data

Results flagged for a closer look

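The difference between days 6 and 4 differed between media lacking a component and full A2S, by the interaction test in edgeR over 13229 genes, in 6 members for A2 and in 5 for AS. Of all genes tested, 7.91% were called for A2 and 10.9% for AS, so the AS count was near the share over all genes. In A2, Tubb4b (-0.73 on the log2 scale), Bub1b (-0.70), Ccnb2 (-0.70) and Cdca8 (-0.55) had a lower day 6 to day 4 difference than in A2S, and Gas2l3 (0.83) and Psrc1 (0.44) a higher one. In AS, Gas2l3 (0.93), Psrc1 (0.77), Kif11 (0.77) and Hmgb2 (0.62) had a higher difference and Tubb4b (-0.72) a lower one. Leaving out single libraries gave 0 to 4 members for A2 and 1 to 6 for AS. The Tubb4b difference in AS was -0.27 without AS day 4 library B, and was then not called.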

How the results depend on the processing

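Over the named members in each comparison, 3579 alternative values were computed, of which 3324 kept their side of the threshold, 57 passed only under the alternative and 198 no longer passed. No value that was called changed sign, whereas some values that were not called did. A call was lost under at least 1 alternative in 58 of 309 pairs of a named member and a comparison. The cause was not tested for any change given here. With listed barcodes kept, 15 members were called in FBS day 3 against MEF cells, 6 in FBS day 9 against day 6 and 23 in A2S day 2 against MEF cells. With only the compared groups fitted, the counts were 5 for FBS day 9 against day 6, 19 for A2S day 4 against day 2, 10 for A2S day 6 against day 4, 1 for AS day 6 against day 4, 12 for S2 against A2S at day 6, 14 for the A2 interaction and 1 for the AS interaction. DESeq2 called 7 members in A2S day 4 against day 2 and 3 in the AS interaction. For Nanog- or Epcam-positive against double-zero cells, thinning to 1000 UMIs gave 11 members and no thinning 50. The share of cells with at least 10 members detected was 43.7%; it was 21.1% with thinning to 1000 UMIs, 55.4% with 4000, 70.5% with none, 59.1% at 5 members or more, 27.4% at 15 or more and 43.6% without called doublets.

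Leaving out each library in turn gave 40 to 44 called members for ESC against MEF, 21 to 23 for ESC A2S against ESC, 28 to 44 for FBS day 3 against MEF, 46 to 49 for FBS day 6 against day 3, 2 to 3 for day 9 against day 6 and 4 to 6 for day 12 against day 9. The ranges were 22 to 39 for A2S day 2 against MEF, 5 to 9 for A2S day 4 against day 2 and 1 to 2 for A2S day 6 against day 4. For day 6 against day 4 they were 5 to 9 in A2, 1 to 7 in S2 and 4 to 12 in AS. At day 6 they were 42 to 44 for A2S against FBS, 17 to 23 for A2 against A2S, 2 to 4 for S2 against A2S and 4 to 15 for AS against A2S. They were 32 to 35 for A2S day 6 against ESC and 46 to 48 for FBS day 12 against ESC. The interactions gave 0 to 4 for A2, 0 for S2 and 1 to 6 for AS.

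Libraries that share a letter did not deviate together (correlations of deviations from -0.069 to 0.022). The main fit did not pair libraries by letter, although these correlations cannot show whether they were prepared together. With the letter as a replicate block, 43 members were called for ESC against MEF, 28 for ESC A2S against ESC, 41 for FBS day 3 against MEF, 49 for FBS day 6 against day 3, 2 for day 9 against day 6, 8 for day 12 against day 9, 35 for A2S day 2 against MEF, 12 for A2S day 4 against day 2 and 4 for day 6 against day 4. Under the block, day 6 against day 4 gave 13 for A2, 5 for S2 and 10 for AS, and the interactions 5, 0 and 5. At day 6 the block gave 44 for A2S against FBS, 24 for A2, 4 for S2 and 16 for AS against A2S, and 39 for A2S against ESC; FBS day 12 against ESC gave 48.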
